A study of Homo sapiens with 16 samples.

Results

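The 52 genes described here encode the machinery that loads, fires and elongates DNA replication origins, and they were picked by name from 20502 entries with a gene symbol among the 20531 of the deposited RNA-seq table. The rule named them by what their proteins do and used no measured value, though earlier results of these data were known when the genes were picked, and all 52 were found. Every library came from LNCaP cells, a line of human prostate cancer that depends on androgen. For 24 h the cells carried 40 nM of siRNA, of either a nonsense control sequence (NS) or a SLIRP pool, SLIRP being an RNA-binding protein that represses the androgen receptor. Serum-free medium with ethanol vehicle (Veh) or 1 nM dihydrotestosterone (DHT), the androgen that activates the receptor, followed for 24 h. Each siRNA was thus combined with each medium, in the groups NS-Veh and NS-1nM DHT for the control and SLIRP-Veh and SLIRP-1nM DHT for the knockdown, with 4 libraries each made as 2 biological replicates in each of 2 experiments. One cell line, one control siRNA and one siRNA pool were used, so effects of a particular siRNA sequence and of the loss of SLIRP cannot be told apart.

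DNA replication begins at origins marked by the origin recognition complex (ORC), where CDC6 and CDT1 load the MCM2 to MCM7 helicase ring in a step called licensing. The kinases CDC7-DBF4 and cyclin E-CDK2 then fire the origin as CDC45 and GINS join the ring, and DNA polymerases alpha, delta and epsilon copy the strands with the sliding clamp PCNA, its loader RFC and the single-strand binding protein RPA. Most of these genes are known as targets of the E2F transcription factors, and their mRNAs peak when cells pass from G1 into S phase.

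Library totals ran from 436220 to 1689123 counts, and the shallowest pair of libraries were NS-Veh replicates 1 and 2. Levels are given as CPM, the counts of a gene per 1000000 counts of the TMM-scaled library size. SLIRP, listed as C14orf156, was at 45.1 to 63.4 CPM in the 8 NS libraries and at 1.41 to 8.05 CPM in the 8 SLIRP siRNA libraries. All 13 luminal and LNCaP markers were detected, and their summed level ran from 7278 to 8360 CPM in NS libraries and from 4962 to 5487 CPM in SLIRP siRNA libraries. STEAP2 (995.5 to 3051 CPM) and FOLH1 (1014 to 2151 CPM) gave the largest parts of that sum. Of 20 markers of other cell types, 8 had 0 counts in every library, among them KRT5 and TP63 of basal cells, PTPRC of blood and PECAM1 of endothelium, and 3 were above 0 in every library, the stromal COL1A1 (5.64 to 21.9 CPM) and COL3A1 (1.31 to 11.3 CPM) and the endothelial VWF (2.37 to 17.4 CPM). Summed levels in NS and SLIRP siRNA libraries ran from 15.7 to 30.5 and from 16.9 to 31.6 CPM for stroma, from 5.94 to 19.2 and from 2.37 to 12.6 CPM for blood and endothelium, from 0 to 6.29 and from 0 to 10.5 CPM for neuroendocrine markers, of which SYP had 63 counts in all, and up to 1.54 and 1.57 CPM for basal markers. The 52 genes are annotated as protein-coding loci, and the exons of 27 of them overlap those of another locus. The strand used for counting is not given in the sources used here, so reads of such neighbours may be mixed.

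SLIRP siRNA was accompanied by higher mRNA of most of the replication machinery. Over all 16 libraries, 41 of the 52 genes were higher with SLIRP siRNA at an adjusted p under 0.01 in edgeR, 0 were lower, 10 were not called and 1, POLE2, had too few counts to be tested. Of all 10160 genes tested, 17.8% were called higher and 17.4% lower. The median log2 fold change (SLIRP siRNA over NS) was 1.06 over the 51 genes tested, against -0.01 over all genes tested. The low-count filter asked for 9.16 CPM in at least as many libraries as the smaller group, and 16 genes reached that level in all 8 SLIRP siRNA libraries but not in all 8 NS libraries, so their passing was tied to the group in which they stood higher. With no filter all 52 genes were tested, and 42 were called higher with a median log2 fold change of 1.10, against 1876 of all 16885 genes. The 52 genes together took 0.146% ± 0.0187 of the counts in NS-Veh and 0.217% ± 0.0232 in NS-1nM DHT (SD, n = 4). With the knockdown the same sum took 0.327% ± 0.0225 under vehicle and 0.434% ± 0.0385 under DHT, and no group overlapped another. In RNA from whole cultures, more cells in S phase and more of these mRNAs per cell cannot be told apart.

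**Figure D1:**
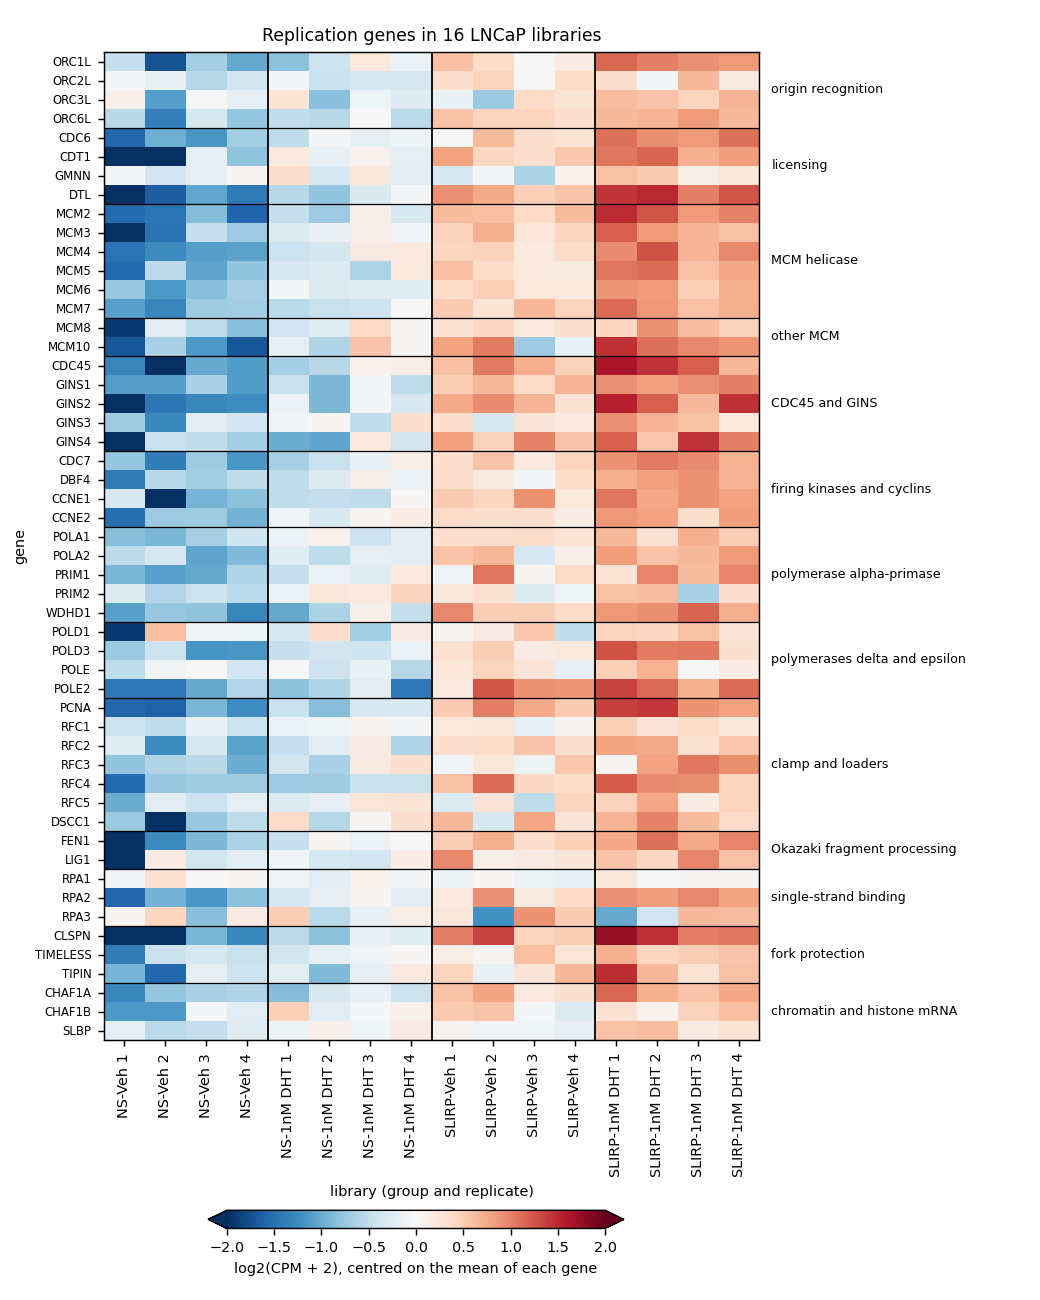
Level of the 52 replication genes (rows, grouped by role) in each of the 16 libraries (columns), as log2(CPM + 2) centred on the mean of each gene, with colours limited to the range from -2 to 2. The NS-Veh columns are mostly blue and the SLIRP-1nM DHT columns mostly red, while the rows of RPA1 and GMNN hold little colour.

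RefSeq start sites and the 300 bases around them (250 before and 50 after, GRCh38.p14) were at hand for 44 of the 52 genes, with 54 promoters in all. A gene was counted if any of its promoters held a word. Words of the E2F type (TTCCCGC or TTGGCGC or TTCGCGC or TTGCCGC, or the reverse complement of any of them) were found for 34 of these 44 genes, or 77.3%. They were found for 26.2% of the genes tested for the siRNA and for 15.3% of all 27305 genes with a promoter. CCAAT, on either strand and counted also where it shared letters with an E2F-type word, was found for 59.1% of the replication genes and 44.3% of the tested genes. The CHR-type word TTTGAA, typical of mitotic genes, was found for 2.27% against 13.5%. Below are 130-base stretches from 110 bases before to 20 after the start, all read 5′ to 3′ on the strand of the gene, with E2F-type words in capitals. The first 4 come from genes with the largest rise of their role.
CLSPN: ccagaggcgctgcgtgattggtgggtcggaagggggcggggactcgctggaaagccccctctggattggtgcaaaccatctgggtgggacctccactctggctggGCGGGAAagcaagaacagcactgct
GINS2: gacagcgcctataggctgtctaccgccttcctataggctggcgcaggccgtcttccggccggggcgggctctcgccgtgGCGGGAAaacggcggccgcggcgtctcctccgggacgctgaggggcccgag
DTL: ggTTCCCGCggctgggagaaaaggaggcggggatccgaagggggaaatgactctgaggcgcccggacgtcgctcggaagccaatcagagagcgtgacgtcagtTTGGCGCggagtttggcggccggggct
MCM2: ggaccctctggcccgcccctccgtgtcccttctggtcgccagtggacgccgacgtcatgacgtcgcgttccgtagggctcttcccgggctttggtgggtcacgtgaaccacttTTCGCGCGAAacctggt
The next 3 carry the same kind of word close to the start but belong to genes that were not called.
GINS3: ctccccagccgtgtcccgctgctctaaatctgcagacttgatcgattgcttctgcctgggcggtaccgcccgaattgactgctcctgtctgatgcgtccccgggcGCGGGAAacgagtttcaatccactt
CHAF1B: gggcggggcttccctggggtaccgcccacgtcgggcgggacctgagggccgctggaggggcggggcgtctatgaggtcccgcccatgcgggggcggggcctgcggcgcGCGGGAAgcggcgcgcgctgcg
ORC3L: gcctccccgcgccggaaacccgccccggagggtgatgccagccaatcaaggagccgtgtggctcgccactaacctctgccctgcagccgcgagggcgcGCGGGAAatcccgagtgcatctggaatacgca
By exact match to hg19, these stretches lie at chr1:36235560-36235689 (CLSPN, minus strand), chr16:85722541-85722670 (GINS2, minus strand), chr1:212208980-212209109 (DTL, plus strand), chr3:127317144-127317273 (MCM2, plus strand), chr16:58426265-58426394 (GINS3, plus strand), chr21:37757580-37757709 (CHAF1B, plus strand) and chr6:88299743-88299872 (ORC3L, plus strand). GCGGGAA begins 5 bases before the start of both CLSPN and GINS3, whose log2 fold changes with SLIRP siRNA were 1.95 and 0.65. Of the 34 genes with an E2F-type word, 27 were called higher, with a median log2 fold change of 1.05. Of the 10 without one in this window, 7 were called higher, also with a median of 1.05. Of the 8 genes with no promoter at hand, 7 were called higher, with a median of 1.175. Words outside the window were not counted, and a relation of these letters to the siRNA response was not tested.

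Among the ORC genes, ORC1L, ORC2L and ORC6L rose with SLIRP siRNA and ORC3L was not called. ORC1L (now ORC1, hg19 chr1:52838501-52870095) encodes the ATP-binding subunit whose level is known to follow the cell cycle. ORC1L was at 13.99, 4.64, 11.9 and 8.84 CPM in NS-Veh and 10.5, 14.7, 23.5 and 18.3 CPM in NS-1nM DHT. With SLIRP siRNA, ORC1L was at 31.4, 26.6, 20.2 and 22.8 CPM in SLIRP-Veh and 46.97, 42.3, 39.8 and 37.8 CPM in SLIRP-1nM DHT. All 4 SLIRP-1nM DHT libraries lay above every other library, while NS-1nM DHT overlapped SLIRP-Veh (log2 fold change 1.25, SE 0.21, adjusted p = 1.13e-05). ORC3L (now ORC3, chr6:88299785-88377171) encodes a structural subunit. ORC3L was at 23.99, 9.28, 22.4 and 19.3 CPM in NS-Veh and 27.3, 11.6, 20.9 and 18.3 CPM in NS-1nM DHT. With SLIRP siRNA, ORC3L was at 20.1, 12.5, 29.6 and 27.2 CPM in SLIRP-Veh and 35.2, 33.9, 31.1 and 37.01 CPM in SLIRP-1nM DHT. These groups overlapped over all libraries, with a log2 fold change of 0.54 (SE 0.19, adjusted p = 0.0222). ORC2L and ORC6L had log2 fold changes of 0.64 (SE 0.11) and 1.12 (SE 0.12).

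The licensing genes CDC6, CDT1 and DTL rose and GMNN was not called. DTL (chr1:212208895-212280742, whose exons overlap those of INTS7 on the other strand) encodes the adaptor that sends CDT1 for destruction in S phase. DTL was at 5.997, 9.28, 15.2 and 11.2 CPM in NS-Veh and 22.03, 18.5, 27.01 and 32.9 CPM in NS-1nM DHT. With SLIRP siRNA, DTL was at 64.5, 57.96, 47.1 and 50.9 CPM in SLIRP-Veh and 93.9, 98.7, 68.98 and 82.9 CPM in SLIRP-1nM DHT. No NS library reached the lowest SLIRP siRNA library (log2 fold change 1.85, SE 0.20, adjusted p = 5.24e-09), a rise of 3.61-fold. GMNN (chr6:24775159-24786327) encodes geminin, the inhibitor of CDT1. GMNN was at 35.98, 27.8, 32.4 and 37.8 CPM in NS-Veh and 47.2, 28.5, 43.6 and 31.5 CPM in NS-1nM DHT. With SLIRP siRNA, GMNN was at 29.02, 36.03, 22.9 and 38.6 CPM in SLIRP-Veh and 56.1, 53.6, 39.8 and 43.5 CPM in SLIRP-1nM DHT. Its groups overlapped, and the log2 fold change was 0.13 with a 95% interval of -0.17 to 0.44. CDC6, which loads the helicase with ORC, and its partner CDT1 had log2 fold changes of 1.23 (SE 0.19) and 1.14 (SE 0.20). Both loading factors thus rose, while the inhibitor of CDT1 was not called. Every SLIRP-1nM DHT library of GMNN was above every SLIRP-Veh library, and those at 56.1 and 53.6 CPM were above every NS library.

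All 6 genes of the MCM2 to MCM7 helicase rose with SLIRP siRNA, with log2 fold changes from 1.00 to 1.58. MCM2 (chr3:127317253-127341279) gave the largest. MCM2 was at 23.99, 25.5, 39.6 and 23.3 CPM in NS-Veh and 52.5, 43.97, 81.03 and 58.5 CPM in NS-1nM DHT. With SLIRP siRNA, MCM2 was at 116, 113, 98.3 and 115 CPM in SLIRP-Veh and 210.1, 179, 135 and 148 CPM in SLIRP-1nM DHT. The 4 groups did not overlap one another and stood lowest in NS-Veh and highest in SLIRP-1nM DHT, with NS-1nM DHT below SLIRP-Veh (log2 fold change 1.58, SE 0.18, adjusted p = 1.4e-08). MCM6 (chr2:136597196-136634013) gave the smallest. MCM6 was at 51.98, 39.4, 48.9 and 55.4 CPM in NS-Veh and 88.1, 73.3, 74.9 and 75.3 CPM in NS-1nM DHT. With SLIRP siRNA, MCM6 was at 116, 125, 104 and 104 CPM in SLIRP-Veh and 167, 164, 125 and 148 CPM in SLIRP-1nM DHT. Its groups kept the same order without overlap (log2 fold change 1.00, SE 0.13, adjusted p = 1.22e-07). MCM4 (chr8:48872745-48890720) is given because of its response to DHT. MCM4 was at 41.98, 48.7, 55.5 and 56.2 CPM in NS-Veh and 89.2, 93.3, 138 and 138 CPM in NS-1nM DHT. With SLIRP siRNA, MCM4 was at 163, 168, 139 and 158 CPM in SLIRP-Veh and 234, 296, 195 and 238 CPM in SLIRP-1nM DHT. Its lowest SLIRP-Veh library was just above its highest NS-1nM DHT library (log2 fold change 1.18, SE 0.18, adjusted p = 2.57e-06). MCM3, MCM5 and MCM7 had log2 fold changes of 1.05 (SE 0.16), 1.17 (SE 0.17) and 1.22 (SE 0.12).

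MCM10 and MCM8 are named like the ring but act outside it. MCM10 (chr10:13203558-13253110) helps to activate the helicase at firing. MCM10 was at 7.996, 18.6, 12.5 and 8.04 CPM in NS-Veh and 26.2, 19.3, 46.2 and 30.7 CPM in NS-1nM DHT. With SLIRP siRNA, MCM10 was at 54.5, 64.2, 17.5 and 27.2 CPM in SLIRP-Veh and 87.4, 67.7, 61.2 and 57.9 CPM in SLIRP-1nM DHT. SLIRP-Veh replicates 3 and 4 lay within or below the NS-1nM DHT range, and the siRNA groups overlapped (log2 fold change 1.29, SE 0.27, adjusted p = 0.000184). With replicates 3 and 4 alone, the MCM10 log2 fold change was 0.84 and no longer called (adjusted p = 0.0934). MCM8 (chr20:5931298-5979623) works with MCM9 in recombination repair. MCM8 was at 9.996, 37.1, 29.7 and 23.3 CPM in NS-Veh and 32.5, 36.2, 57.5 and 43.9 CPM in NS-1nM DHT. With SLIRP siRNA, MCM8 was at 53.3, 57.96, 49.8 and 54.4 CPM in SLIRP-Veh and 58.7, 81.8, 67.04 and 60.3 CPM in SLIRP-1nM DHT. Its highest NS-1nM DHT library lay within the SLIRP siRNA range (log2 fold change 0.77, SE 0.17, adjusted p = 0.000311), and the call was lost with replicates 3 and 4 alone (adjusted p = 0.0238).

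CDC45 and 3 of the 4 GINS genes, which complete the moving helicase, rose. CDC45 (chr22:19466980-19508135) recruits the polymerases to the helicase. CDC45 was at 5.997, 0, 7.92 and 7.23 CPM in NS-Veh and 10.5, 11.6, 19.2 and 19.8 CPM in NS-1nM DHT. With SLIRP siRNA, CDC45 was at 28.4, 39.2, 30.98 and 25.4 CPM in SLIRP-Veh and 60.02, 52.2, 43.7 and 29.8 CPM in SLIRP-1nM DHT. The SLIRP siRNA libraries all lay above the NS libraries (log2 fold change 1.69, SE 0.25, adjusted p = 1.45e-06). GINS2 (chr16:85709804-85723679, exons shared with GSE1 on the other strand) gave the largest rise of the group. GINS2 was at 1.999, 4.64, 5.28 and 5.62 CPM in NS-Veh and 14.7, 7.71, 15.7 and 12.4 CPM in NS-1nM DHT. With SLIRP siRNA, GINS2 was at 28.4, 32.9, 26.9 and 20.2 CPM in SLIRP-Veh and 50.9, 39.5, 26.2 and 47.5 CPM in SLIRP-1nM DHT. NS-Veh held 18 GINS2 counts in all, so its level there is known only roughly, yet each SLIRP siRNA library was above each NS library (log2 fold change 1.87, SE 0.25, adjusted p = 2.64e-07). GINS3 (chr16:58328984-58440051) encodes another subunit of the same 4-protein complex. GINS3 was at 7.996, 4.64, 11.9 and 10.4 CPM in NS-Veh and 13.6, 14.7, 9.58 and 18.3 CPM in NS-1nM DHT. With SLIRP siRNA, GINS3 was at 18.4, 10.96, 17.5 and 16.7 CPM in SLIRP-Veh and 28.7, 23.98, 22.4 and 16.9 CPM in SLIRP-1nM DHT. Its groups overlapped and it missed the threshold (log2 fold change 0.65, SE 0.21, adjusted p = 0.0112). GINS1 and GINS4 had log2 fold changes of 1.43 (SE 0.13) and 1.66 (SE 0.23).

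All 4 genes of the firing kinases and cyclins rose, CDC7 by 1.20 (SE 0.16) and its activator DBF4 by 0.97 (SE 0.17) on the log2 scale. CCNE1 (chr19:30302898-30315219) encodes cyclin E1, a partner of CDK2 at the G1 to S transition. CCNE1 was at 11.99, 2.32, 7.26 and 8.04 CPM in NS-Veh and 10.5, 10.8, 10.5 and 16.1 CPM in NS-1nM DHT. With SLIRP siRNA, CCNE1 was at 23.1, 21.9, 30.98 and 18.4 CPM in SLIRP-Veh and 35.2, 28.2, 31.1 and 28.97 CPM in SLIRP-1nM DHT. Every SLIRP siRNA library was above every NS library (log2 fold change 1.40, SE 0.20, adjusted p = 1.28e-06). CCNE2 (chr8:95891998-95908906) encodes cyclin E2. CCNE2 was at 13.99, 25.5, 25.8 and 21.7 CPM in NS-Veh and 41.96, 34.7, 45.3 and 48.3 CPM in NS-1nM DHT. With SLIRP siRNA, CCNE2 was at 57.4, 54.8, 55.2 and 48.2 CPM in SLIRP-Veh and 80.9, 77.6, 55.4 and 78.8 CPM in SLIRP-1nM DHT. It overlapped at a single edge, where the highest NS-1nM DHT library just passed the lowest SLIRP-Veh library (log2 fold change 0.90, SE 0.17, adjusted p = 4.15e-05).

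Polymerase alpha-primase, which makes the primers, showed POLA1, POLA2, PRIM1 and the linker gene WDHD1 higher and PRIM2 not called. WDHD1 (chr14:55405667-55493823) ties this polymerase to the helicase. WDHD1 was at 17.99, 23.2, 22.4 and 15.3 CPM in NS-Veh and 18.9, 25.4, 43.6 and 28.5 CPM in NS-1nM DHT. With SLIRP siRNA, WDHD1 was at 80.5, 57.96, 57.9 and 53.5 CPM in SLIRP-Veh and 75.7, 78.99, 93.3 and 68.4 CPM in SLIRP-1nM DHT. All SLIRP siRNA libraries lay above all NS libraries (log2 fold change 1.51, SE 0.16, adjusted p = 4.75e-09). PRIM2 (chr6:57179603-57513376) encodes the large primase subunit and shares sequence with the pseudogene PRIM2BP, so its counts are uncertain. PRIM2 was at 11.99, 9.28, 10.6 and 9.64 CPM in NS-Veh and 13.6, 17.7, 17.4 and 21.2 CPM in NS-1nM DHT. With SLIRP siRNA, PRIM2 was at 17.8, 18.8, 12.1 and 14.03 CPM in SLIRP-Veh and 23.5, 23.98, 8.74 and 19.3 CPM in SLIRP-1nM DHT. Its NS-1nM DHT libraries lay within the SLIRP siRNA range (log2 fold change 0.23, SE 0.22, adjusted p = 0.4). POLA1, POLA2 and PRIM1 had log2 fold changes of 0.82 (SE 0.13), 1.11 (SE 0.18) and 1.06 (SE 0.22).

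For the polymerases that copy the strands, POLD3 and POLE rose and POLD1 was not called. POLD3 (chr11:74204896-74380162) encodes an accessory subunit of polymerase delta. POLD3 was at 21.99, 27.8, 15.8 and 16.1 CPM in NS-Veh and 27.3, 29.3, 28.8 and 35.1 CPM in NS-1nM DHT. With SLIRP siRNA, POLD3 was at 47.97, 54.8, 43.1 and 44.7 CPM in SLIRP-Veh and 95.2, 80.4, 81.6 and 48.3 CPM in SLIRP-1nM DHT. The siRNA groups did not overlap (log2 fold change 1.26, SE 0.19, adjusted p = 1.4e-06). POLD1 (chr19:50887461-50921275) encodes the catalytic subunit of the same enzyme. POLD1 was at 3.998, 32.5, 19.8 and 19.3 CPM in NS-Veh and 15.7, 27, 12.2 and 23.4 CPM in NS-1nM DHT. With SLIRP siRNA, POLD1 was at 21.3, 23.5, 30.98 and 14.03 CPM in SLIRP-Veh and 28.7, 28.2, 32.1 and 24.9 CPM in SLIRP-1nM DHT. NS-Veh alone spanned the range of all other libraries, and the log2 fold change was 0.35 (SE 0.21, adjusted p = 0.178). POLE, the catalytic subunit of polymerase epsilon, had a log2 fold change of 0.51 (SE 0.13).

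POLE2 (chr14:50110273-50155140), the second subunit of polymerase epsilon, was the gene that failed the low-count filter over all libraries. POLE2 was at 0, 0, 0.66 and 1.61 CPM in NS-Veh and 1.05, 1.54, 2.61 and 0 CPM in NS-1nM DHT. With SLIRP siRNA, POLE2 was at 4.14, 10.96, 8.08 and 7.89 CPM in SLIRP-Veh and 11.7, 9.87, 6.80 and 9.65 CPM in SLIRP-1nM DHT. These levels came from 3 counts over NS-Veh, 6 over NS-1nM DHT, 29 over SLIRP-Veh and 35 over SLIRP-1nM DHT. Every SLIRP siRNA library was above every NS library, and in the 4-group model, where it passed the filter, POLE2 was called higher with the siRNA in vehicle (adjusted p = 0.000878) and in DHT (adjusted p = 0.000128). It passed that filter through 1 SLIRP-Veh and 3 SLIRP-1nM DHT libraries and 0 NS libraries, so both calls are tied to the groups in which it stood higher, and they are among the calls counted by treatment below.

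PCNA (chr20:5095599-5107272), the clamp that holds polymerases to DNA, was among the most abundant of these mRNAs. PCNA was at 61.97, 60.3, 99.04 and 77.9 CPM in NS-Veh and 138, 103, 149.9 and 152 CPM in NS-1nM DHT. With SLIRP siRNA, PCNA was at 268, 387, 319 and 271 CPM in SLIRP-Veh and 489, 508, 353 and 332 CPM in SLIRP-1nM DHT. It rose 3.28-fold, and the lowest SLIRP siRNA library was well above the highest NS library (log2 fold change 1.71, SE 0.15, adjusted p = 1.27e-10). Of the RFC genes that load PCNA, RFC1 to RFC4 rose, with log2 fold changes of 0.39 (SE 0.09), 0.95 (SE 0.16), 0.87 (SE 0.20) and 1.51 (SE 0.16). RFC5 (chr12:118451393-118470935) was not called. RFC5 was at 13.99, 25.5, 21.8 and 25.7 CPM in NS-Veh and 24.1, 26.2, 35.7 and 36.6 CPM in NS-1nM DHT. With SLIRP siRNA, RFC5 was at 24.3, 36.03, 20.2 and 41.2 CPM in SLIRP-Veh and 41.8, 52.2, 33.03 and 41.03 CPM in SLIRP-1nM DHT. Its siRNA groups overlapped (log2 fold change 0.39, SE 0.17, adjusted p = 0.0678). DSCC1 (chr8:120846216-120868134) belongs to an alternative loader that acts in sister chromatid cohesion. DSCC1 was at 9.996, 2.32, 9.90 and 12.1 CPM in NS-Veh and 24.1, 11.6, 18.3 and 23.4 CPM in NS-1nM DHT. With SLIRP siRNA, DSCC1 was at 29.6, 14.1, 32.3 and 21.9 CPM in SLIRP-Veh and 30.01, 38.1, 29.1 and 24.1 CPM in SLIRP-1nM DHT. NS-1nM DHT and SLIRP-Veh covered much the same range (log2 fold change 0.87, SE 0.22, adjusted p = 0.00178).

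Both genes for processing of Okazaki fragments rose. FEN1 (chr11:61560383-61564710, within the exon span of FADS2) encodes the flap endonuclease that trims the fragments. FEN1 was at 9.996, 23.2, 30.4 and 36.96 CPM in NS-Veh and 41.96, 60.9, 54.02 and 59.3 CPM in NS-1nM DHT. With SLIRP siRNA, FEN1 was at 82.9, 98.7, 75.4 and 82.4 CPM in SLIRP-Veh and 102, 128, 100.1 and 117 CPM in SLIRP-1nM DHT. NS and SLIRP siRNA libraries did not overlap (log2 fold change 1.18, SE 0.17, adjusted p = 6.97e-07). LIG1 (chr19:48618702-48673860) encodes the ligase that joins them. LIG1 was at 0, 16.2, 10.6 and 12.1 CPM in NS-Veh and 13.6, 10.8, 10.5 and 16.1 CPM in NS-1nM DHT. With SLIRP siRNA, LIG1 was at 29.6, 15.7, 16.2 and 17.5 CPM in SLIRP-Veh and 22.2, 19.8, 30.1 and 22.5 CPM in SLIRP-1nM DHT. NS-Veh replicate 1 had 0 LIG1 counts, which at that depth allows 3 counts, or about 6.0 CPM. LIG1 rose (log2 fold change 0.94, SE 0.23, adjusted p = 0.00105), and without replicate 3 the log2 fold change was 0.86 and missed the threshold (adjusted p = 0.0143).

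The 3 subunits of RPA, which coats unwound DNA, differed, with RPA2 higher and RPA1 and RPA3 not called. RPA2 (chr1:28218035-28241257) encodes the middle subunit, phosphorylated in S phase and after damage. RPA2 was at 15.99, 25.5, 21.8 and 28.1 CPM in NS-Veh and 39.9, 45.5, 52.3 and 43.9 CPM in NS-1nM DHT. With SLIRP siRNA, RPA2 was at 59.2, 98.7, 57.9 and 68.4 CPM in SLIRP-Veh and 97.9, 93.1, 101 and 90.1 CPM in SLIRP-1nM DHT. Its siRNA groups did not overlap (log2 fold change 1.19, SE 0.17, adjusted p = 6.72e-07). RPA1 (chr17:1732996-1803376) encodes the large DNA-binding subunit. RPA1 was at 148, 190.2, 154 and 159 CPM in NS-Veh and 146, 131, 161 and 149 CPM in NS-1nM DHT. With SLIRP siRNA, RPA1 was at 144, 158, 143 and 139 CPM in SLIRP-Veh and 180.1, 155, 158 and 156.1 CPM in SLIRP-1nM DHT. RPA1 gave the smallest difference of all 51 genes tested, with a 95% interval of the log2 fold change from -0.17 to 0.17 around an estimate of 1-fold. RPA3, the small subunit, was covered by 178 counts over all libraries and had a log2 fold change of 0.37 (SE 0.28, adjusted p = 0.298).

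**Figure D2:**
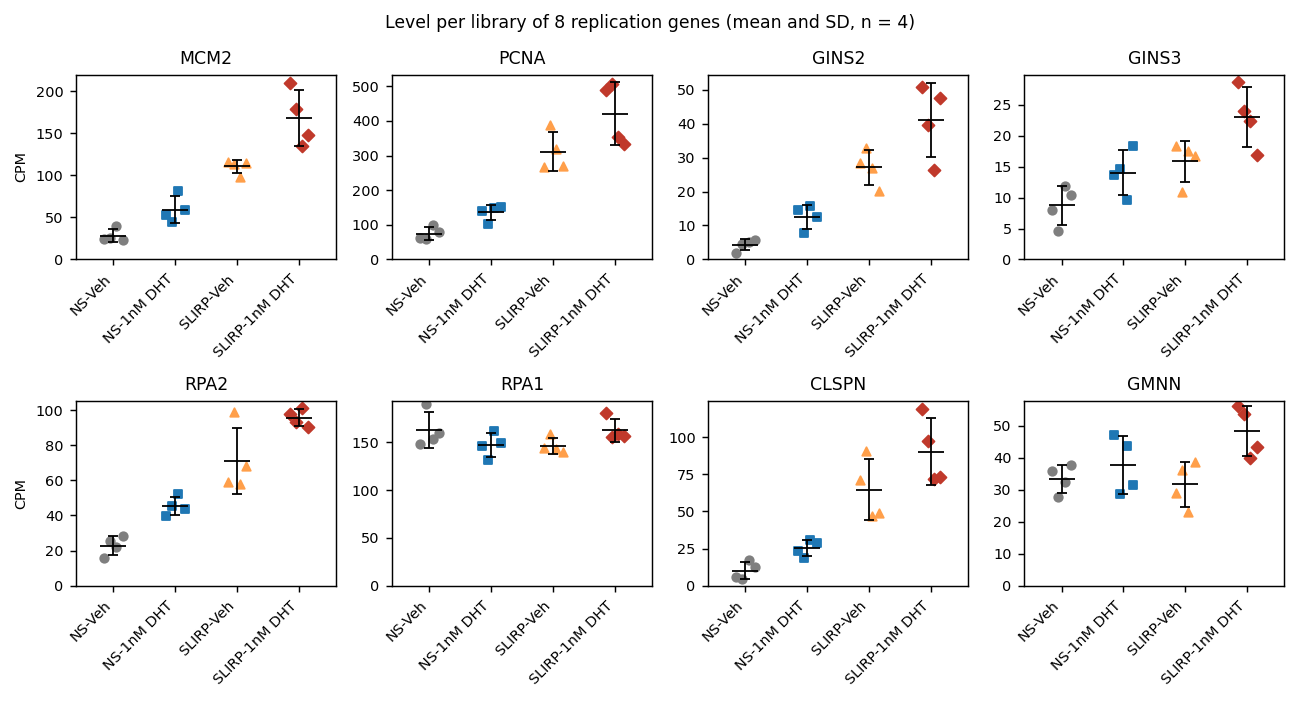
CPM of 8 replication genes in each library (points) by group, with the mean and SD of the 4 libraries in black and axes starting at 0. MCM2, PCNA, GINS2, RPA2 and CLSPN lie higher in both SLIRP siRNA groups than in both NS groups, while the groups of GINS3, RPA1 and GMNN overlap.

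All 3 fork protection genes rose. CLSPN (chr1:36185819-36235579) encodes claspin, the mediator that activates CHEK1 at stalled forks, and gave the largest rise of the genes tested. CLSPN was at 5.997, 4.64, 17.2 and 12.9 CPM in NS-Veh and 23.1, 18.5, 30.5 and 28.5 CPM in NS-1nM DHT. With SLIRP siRNA, CLSPN was at 71.1, 90.8, 47.1 and 49.1 CPM in SLIRP-Veh and 118.7, 97.3, 71.9 and 73.2 CPM in SLIRP-1nM DHT. It rose 3.86-fold without overlap between NS and SLIRP siRNA libraries (log2 fold change 1.95, SE 0.21, adjusted p = 4.68e-09). TIMELESS (chr12:56810147-56843210) travels with the fork together with TIPIN. TIMELESS was at 33.98, 67.3, 73.3 and 67.5 CPM in NS-Veh and 71.3, 80.2, 88 and 93.6 CPM in NS-1nM DHT. With SLIRP siRNA, TIMELESS was at 102, 95.5, 141 and 109.6 CPM in SLIRP-Veh and 153, 126, 130.2 and 138 CPM in SLIRP-1nM DHT. NS and SLIRP siRNA libraries were again separate (log2 fold change 0.72, SE 0.12, adjusted p = 8.49e-06), and TIPIN had a log2 fold change of 0.99 (SE 0.20).

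Of the genes that rebuild chromatin behind the fork, CHAF1A rose and CHAF1B and SLBP were not called. CHAF1A (chr19:4402637-4445015) encodes the large subunit of the CAF-1 histone chaperone. CHAF1A was at 21.99, 32.5, 35.6 and 36.96 CPM in NS-Veh and 30.4, 45.5, 51.4 and 41.7 CPM in NS-1nM DHT. With SLIRP siRNA, CHAF1A was at 86.5, 100.2, 66.01 and 71.9 CPM in SLIRP-Veh and 129, 94.5, 85.5 and 98.96 CPM in SLIRP-1nM DHT. NS and SLIRP siRNA libraries did not overlap (log2 fold change 1.23, SE 0.13, adjusted p = 7.46e-09). SLBP (chr4:1694458-1714071) encodes the protein that binds the stem-loop of histone mRNAs. SLBP was at 59.97, 46.4, 48.9 and 57.9 CPM in NS-Veh and 63.98, 73.3, 64.5 and 76.8 CPM in NS-1nM DHT. With SLIRP siRNA, SLBP was at 71.1, 65.8, 64.7 and 59.6 CPM in SLIRP-Veh and 104, 106, 77.7 and 82.9 CPM in SLIRP-1nM DHT. The NS-1nM DHT libraries reached above the SLIRP-Veh libraries (log2 fold change 0.32, SE 0.12, adjusted p = 0.034). CHAF1B, the partner of CHAF1A, had a log2 fold change of 0.44 (SE 0.17, adjusted p = 0.0312).

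By the count of genes whose libraries did not overlap, 27 of the 52 stood higher in all 8 SLIRP siRNA libraries than in all 8 NS libraries, against 7.92% of all genes tested. None of the 52 stood lower throughout, against 7.25% of all genes.

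To set the subunits of one complex side by side, the log2 ratio of CPM + 2 was taken in each library for all 51 pairs of subunits within 11 complexes. The ratios were taken up after the responses of the genes had been seen and restate the same values, so they are given as a description without p-values. The log2 ratio of RPA2 to RPA1 was -2.20 ± 0.62 in NS cells and -0.90 ± 0.25 in SLIRP siRNA cells (SD, n = 8), a difference of 1.30. This ratio also moved with androgen. Control cells averaged -2.75 under vehicle and -1.65 under DHT, without overlap, so their pooled SD includes a treatment difference. Knockdown cells averaged -1.05 and -0.75 under the same media. RFC4 over RFC1 was -2.96 ± 0.27 in NS cells and -1.86 ± 0.23 in SLIRP siRNA cells, a difference of 1.09. For both pairs no SLIRP siRNA library overlapped an NS library. GINS2 over GINS3 was -0.44 ± 0.63 in NS cells and 0.74 ± 0.46 in SLIRP siRNA cells, a difference of 1.18. CHAF1A over CHAF1B was 0.39 ± 0.50 in NS cells and 1.10 ± 0.29 in SLIRP siRNA cells, a difference of 0.72.

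For primase, PRIM1 over PRIM2 was -0.24 ± 0.19 in NS cells and 0.56 ± 0.53 in SLIRP siRNA cells, a difference of 0.80. POLE2 over POLE gave a difference of 1.37, from the few POLE2 counts given above. In the MCM2 to MCM7 ring the ratios of the 15 pairs shifted by 0.01 to 0.66 in size, the most for MCM2 over MCM6. The CDC7 to DBF4, TIPIN to TIMELESS and POLD3 to POLD1 ratios shifted by 0.29, 0.24 and 0.72. A ratio within a library shows only that one mRNA changed relative to the other.

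**Figure D3:**
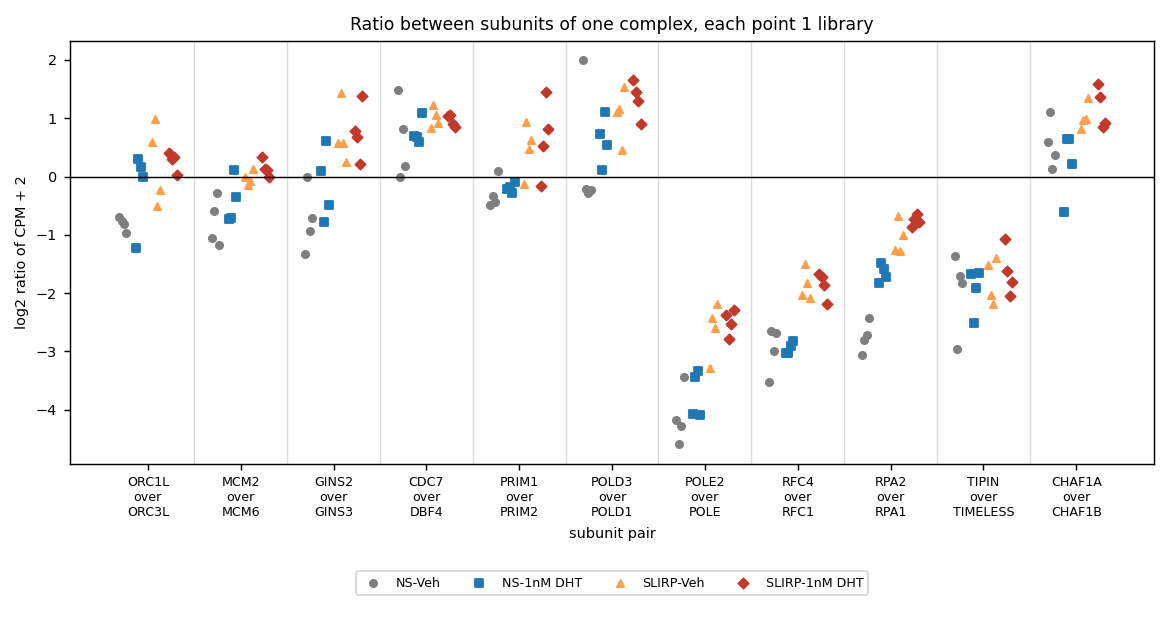
Log2 ratio of CPM + 2 between subunits of one complex, for the pair with the largest shift in each of the 11 complexes, each point 1 library coloured by group. For RPA2 over RPA1 and RFC4 over RFC1 all SLIRP siRNA points lie above all NS points, while the points of CDC7 over DBF4 and TIPIN over TIMELESS overlap.

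Per kilobase of the canonical transcript, PCNA was the most abundant of the 52 mRNAs in every group, at 58.6 ± 14.1 CPM per kb in NS-Veh and 107 ± 17.7 CPM per kb in NS-1nM DHT (SD, n = 4). With SLIRP siRNA, its level per kb was 244 ± 43.6 under vehicle and 329.6 ± 71.2 under DHT. In NS-Veh it was followed by RPA1 at 33.6 ± 3.89 CPM per kb, SLBP at 29.4 ± 3.68, RFC1 at 28.96 ± 3.46 and GMNN at 26.5 ± 3.47, levels within about 1 SD of their neighbours in that order. In SLIRP-1nM DHT the next after PCNA were MCM7 at 82.6 ± 13.8, RPA2 at 60.3 ± 3.06 and MCM4 at 59.3 ± 10.2 CPM per kb, while RPA1 stood at place 15 and GMNN at place 14. Within the MCM2 to MCM7 ring, MCM7 was the highest and MCM5 the lowest in each group, and their levels per kb differed 3.65-fold in NS-Veh, 3.29-fold in NS-1nM DHT, 3.87-fold in the SLIRP-Veh group and 3.37-fold with both SLIRP siRNA and DHT.

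Taken separately by treatment, SLIRP siRNA raised 40 of the 52 genes in vehicle and 41 in 1 nM DHT, with 0 lower in either. Of all 10677 genes tested in the 4-group model, 11.8% were higher in vehicle and 12.8% in DHT, and 9.84% and 11.6% were lower. The median log2 fold change of the 52 genes was 1.30 in vehicle and 1.02 in DHT, and the groups did not overlap for 39 genes in vehicle and 41 in DHT, against 15.3% and 15.8% of all genes. None lay lower without overlap, against 14% and 16.4% of all genes. The largest responses in vehicle after POLE2 were GINS2 at 2.43 (SE 0.34), CLSPN at 2.34 (SE 0.27) and DTL at 2.24 (SE 0.23). In DHT the same genes had log2 fold changes of 1.71 (SE 0.24), 1.80 (SE 0.21) and 1.74 (SE 0.18). In NS-Veh, GINS2 reached the filter level of 9.16 CPM in 0 libraries, CLSPN in 2 and DTL in 3. Each reached it in every SLIRP siRNA library, so their passing was tied to the groups in which they stood higher. ORC3L and POLE were called in DHT alone, at 0.85 (SE 0.24) and 0.62 (SE 0.18), and DSCC1 in vehicle alone, at 1.38 (SE 0.31), though the difference between the treatments was not significant for any of them. The DSCC1 call in vehicle was lost without replicate 1 (log2 fold change 1.25, adjusted p = 0.0141) and without replicate 3 (log2 fold change 1.29, adjusted p = 0.0178). LIG1 was called in neither, at 1.04 (SE 0.33, adjusted p = 0.0142) in vehicle and 0.90 (SE 0.30, adjusted p = 0.0169) in DHT.

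**Figure D4:**
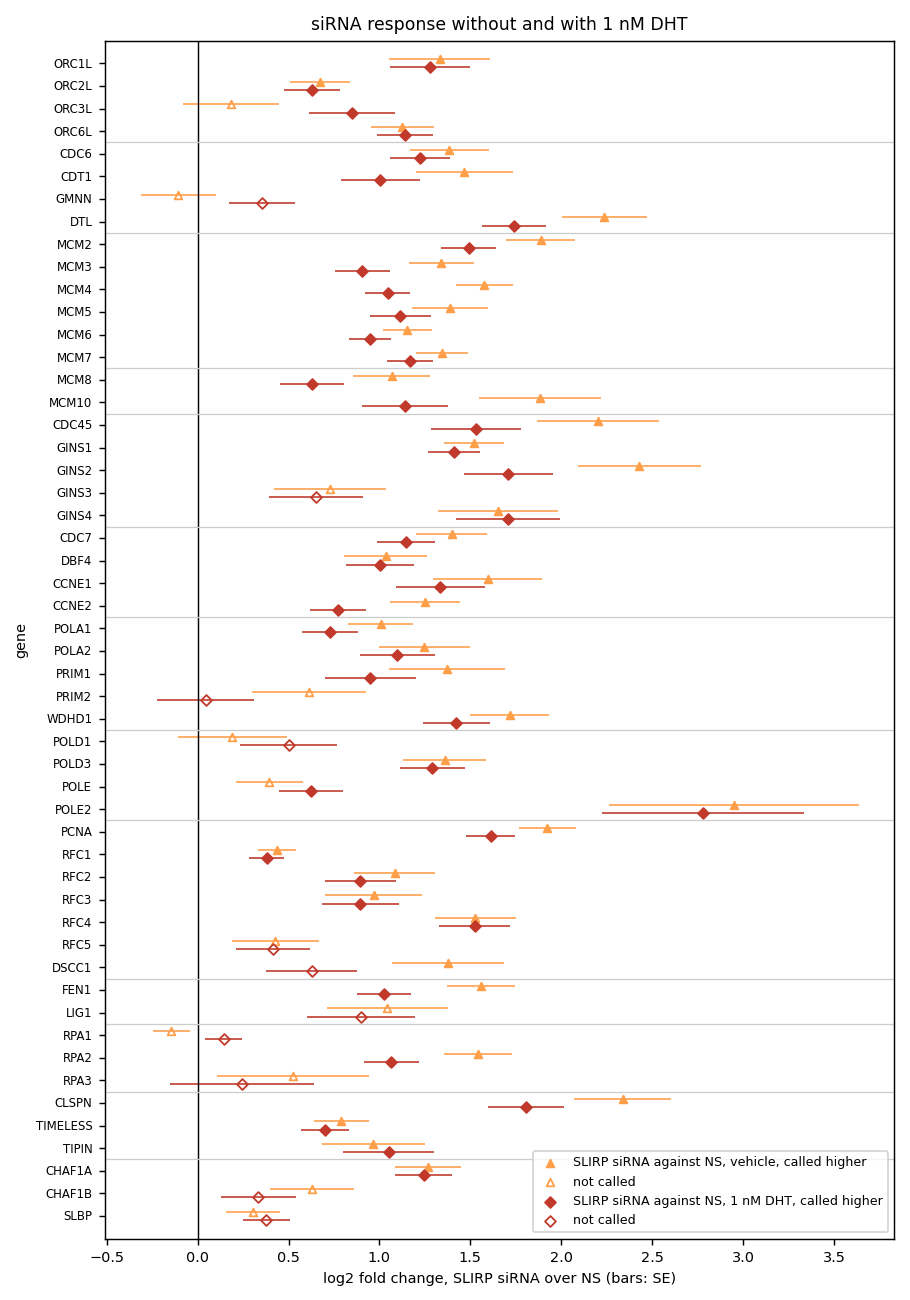
Log2 fold change of each of the 52 genes with SLIRP siRNA over NS (horizontal axis, bars showing the SE) in vehicle (triangles) and in 1 nM DHT (diamonds), filled where the gene was called higher. Most symbols lie between 0.5 and 2.5, and the open symbols include both of GMNN, GINS3, PRIM2, POLD1, RFC5, LIG1, RPA1, RPA3, CHAF1B and SLBP.

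Androgen alone moved fewer of these genes. In NS cells 1 nM DHT raised 9 of the 52 genes, 0 were lower, and POLE2 and GINS2 were not tested for low counts. Across all 10360 genes tested, 0.849% were called higher and 0.463% lower. The 9 were MCM2, MCM3, MCM4, MCM6, MCM10, CCNE2, PCNA, FEN1 and RPA2. MCM10 gave the largest log2 fold change, 1.44 (SE 0.29, adjusted p = 0.00294). Without any one replicate number it was 1.25 to 1.76, and the call was lost in 3 of the 4 cases (adjusted p = 0.0106, 0.0578 and 0.0503 without replicates 1, 3 and 4). It was followed by CDC45 at 1.25 (SE 0.37, adjusted p = 0.0628), which was not called. MCM4 rose by 1.12 (SE 0.15, adjusted p = 1.36e-05), while DTL at 1.09 (SE 0.27, adjusted p = 0.0201) and CLSPN at 1.00 (SE 0.28, adjusted p = 0.0449) missed the threshold. In NS-Veh, MCM10 and CLSPN reached the filter level of 9.16 CPM in 2 of 4 libraries, DTL in 3 and CDC45 in 0. MCM10, CLSPN, DTL and CDC45 all reached it in every NS-1nM DHT library, so their passing was tied to the group in which they stood higher. PCNA rose by 0.74 (SE 0.14, adjusted p = 0.00109) and RPA2 by 0.94 (SE 0.19, adjusted p = 0.00272), and RPA1 was at -0.13 (SE 0.10, adjusted p = 0.606). The median log2 fold change over the 50 genes tested was 0.58, and NS-1nM DHT lay above NS-Veh without overlap for 21 of the 52 genes, against 4.88% of all genes tested, and below it for none, against 3.85%. The count of called genes fell to between 3 and 5 when any one replicate number was left out, and over all settings tried it ran from 0 to 15. Calls among all genes, 88 in the main fit, were 49 to 60 and 12 to 173 under the same settings.

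In SLIRP siRNA cells DHT raised 2 of the 52 genes, CDC6 by 0.76 (SE 0.16, adjusted p = 0.00439) and MCM4 by 0.60 (SE 0.12, adjusted p = 0.0023), against 0.637% of all genes called higher and 0.534% lower. Leaving out replicate 1 left 0 called and leaving out replicate 2 or 4 left 1, with 27, 44 and 45 of all genes then called higher. The median log2 fold change was 0.41, and 16 of the 52 genes lay above without overlap, against 4.27% of all genes, and 0 lay below, against 4.08%. MCM10 was at 0.70 (SE 0.23, adjusted p = 0.0926), MCM2 at 0.57 (SE 0.14, adjusted p = 0.0151) and PCNA at 0.44 (SE 0.13, adjusted p = 0.0425).

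Whether the siRNA altered the DHT response was tested as the difference between the 2 responses, where a negative value means a smaller rise with DHT in SLIRP siRNA cells. At an adjusted p under 0.01 in edgeR, 0 of the 52 genes and 0 of all 10677 genes (0%) were called, and DESeq2 also called 0 of the 52. The difference was negative for 43 of the 52 genes, with a median of -0.18, against -0.02 over all genes tested. The share of negative values among all genes was not counted. All 52 genes were read from the same libraries, so these are not 43 separate observations. At an unadjusted p under 0.05 in the same edgeR test there were 2 of the 52 genes, no more than chance alone gives at that threshold. They were MCM4 at -0.53 (95% interval -0.93 to -0.13) and FEN1 at -0.53 (95% interval -1.01 to -0.06). The largest differences were DSCC1 at -0.75 (95% interval -1.54 to 0.04), MCM10 at -0.74 (95% interval -1.57 to 0.09) and GINS2 at -0.72 (95% interval -1.60 to 0.15). The median SE of the difference was 0.29, against a median DHT response of 0.58 in NS cells, and equal responses are not shown.

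**Figure D5:**
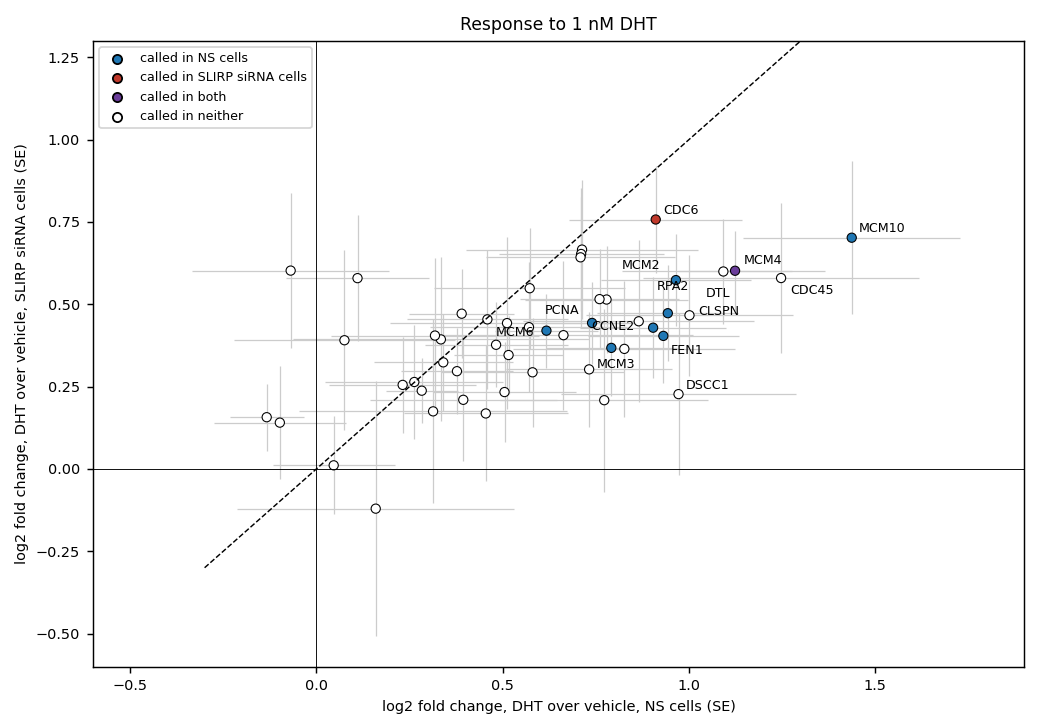
Log2 fold change with 1 nM DHT over vehicle in NS cells (horizontal axis) and in SLIRP siRNA cells (vertical axis) for the 50 replication genes tested in both, with bars showing the SE and a dashed line where both are equal. Filled points were called, 9 in NS cells and 2 in SLIRP siRNA cells, with MCM4 in both, and most points lie below the dashed line.

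Genes that work beside the 52 were also mostly higher with SLIRP siRNA. Of 48 other replication genes in the table, 46 were tested, with a median log2 fold change of 0.87. Of these, 34 were higher and 3 lower, against 17.8% and 17.4% of all genes tested. The largest were the nucleotide synthesis genes TYMS, at 2.22 (SE 0.15), and RRM2, at 2.11 (SE 0.17), followed by the transcription factor E2F2, at 1.99 (SE 0.21), and cyclin A2 (CCNA2), at 1.81 (SE 0.16). All 24 mitosis genes were higher, with a median of 1.48, led by CEP55 at 2.16 (SE 0.17), MKI67 at 1.82 (SE 0.13), TOP2A at 1.82 (SE 0.14) and NUSAP1 at 1.82 (SE 0.15). Of the replication-dependent histone genes, whose transcripts lack the poly(A) tail that many library kits select for, 42 of 66 were tested and 30 were higher and 1 lower.

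Gene groups with other roles were counted in the same comparison, where 17.8% of all genes were higher and 17.4% lower. Of 16 tested p53 targets, 9 were higher and 2 lower, with CDKN1A, an inhibitor of cyclin-dependent kinases, at 1.07 (SE 0.11), FAS at 1.00 (SE 0.22), PLK2 at 0.86 (SE 0.11) and ZMAT3 at -1.09 (SE 0.20). Of 22 tested interferon-stimulated genes, 19 were lower and 1 higher, with a median log2 fold change of -2.34, OASL at -4.92 (SE 0.28), RSAD2 at -4.32 (SE 0.39), IFIT1 at -4.29 (SE 0.22) and IFI6 at -3.74 (SE 0.15). The summed level of the 30 listed interferon-stimulated genes ran from 1433 to 2213 CPM in NS libraries and from 485 to 622 CPM in SLIRP siRNA libraries. These genes thus moved with the siRNA groups opposite to the replication genes, and their part in the replication gene result was not tested. Of 12 tested luminal markers 6 were lower and 0 higher, against 17.4% and 17.8% of all genes tested. Those lower included STEAP2 at -1.13 (SE 0.07), FOLH1 at -0.68 (SE 0.06), HOXB13 at -0.63 (SE 0.09) and KRT8 at -0.51 (SE 0.07). KLK2 at 0.79 (SE 0.49), KLK3 at 0.42 (SE 0.38) and TMPRSS2 at 0.39 (SE 0.17) went the other way and were not called. Taken by treatment, 1 of 13 was higher and 7 lower in vehicle, and 3 were higher and 9 lower in DHT.

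With DHT in NS cells, 3 of 44 tested other replication genes, 1 of 23 mitosis genes and 5 of 39 histone genes were higher. Their medians were 0.45, 0.45 and 0.63, and 0.849% of all genes tested were higher. The 26 tested interferon-stimulated genes had a median of 0.10, and 6 of 13 luminal markers were higher.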

How the data were processed

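RNA of 16 LNCaP libraries was read as single 50-base reads. Per the labels' processing notes the authors used CASAVA and RSEM with hg19, and deposited expected counts per gene, rounded to whole numbers here where needed, for 20531 entries listed by symbol and Entrez identifier. Entries without a symbol (29, or 0.0353% of counts) were left out. A second deposited table holds a score for 13148 genes, for which the authors scaled each library to its upper quartile on a linear scale, and it served only as an alternative. The versions of the aligner, the annotation and the strand used for counting are not given in the sources used here.

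The counts were analysed in R 4.3.3 with edgeR 4.0.16 (TMM, filterByExpr defaults and the quasi-likelihood F test). P-values were adjusted by Benjamini and Hochberg across every gene in a test, with a threshold of 0.01. The siRNA comparison used all 16 libraries without covariates, the DHT comparison in control cells used the 8 NS libraries, and all others were contrasts of a 4-group model. The SE was taken from the fitted fold change and its test, and 95% intervals are 1.96 SE on either side. CPM values use TMM-scaled library sizes, and floors of 3 counts cover counting error only. Library totals of 436220 to 1689123 counts limit the genes at low levels most. P-values measure the spread between the libraries of a group, which come from 2 experiments. The members of the gene set and all lists were chosen with earlier results of these data known. Values in every library are given for the genes with the largest and the smallest fold change of each role, the 5 largest with DHT in NS cells, the 3 largest in the difference of DHT responses and any gene that failed the filter. From each other list, the 4 called genes with the largest change are named.

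Same-numbered replicates of different groups had mean correlations of 0.0285 to 0.137 in their deviations from the group means (genes averaging 30 counts or more). Since not every pair passed 0.1, the numbers were not taken to pair the samples. Between NS-Veh and NS-1nM DHT, correlations were 0.0504 to 0.202 within replicates 1 and 2 or within replicates 3 and 4. Across these sets they were -0.212 to -0.0599. No other pair of groups split fully, with 0.0388 between SLIRP-Veh replicate 1 and SLIRP-1nM DHT replicate 4. Whether these sets are the 2 experiments is not given in the sources used here. Positions and canonical transcript lengths come from GENCODE on hg19, promoters from RefSeq (GRCh38.p14). A search of protein sequences for the PCNA-binding motif was not run. The models were tested on simulated data. Alternatives were DESeq2 1.42.0, upper-quartile and RLE normalization, other low-count filters, the replicate block, a threshold of 0.05, limma 3.58.1 on the normalized table, and leaving out replicates. The subunit ratios, computed in Python 3.11.15, were added after the gene results were seen, so the permutation p-values computed with them are not used. Figures were drawn with matplotlib 3.10.9.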

Additional observations from a re-analysis of the deposited data

Results flagged for a closer look

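Among 124 groups of 4 libraries examined (30 genes and the summed share of the 52 genes, each in 4 groups), 9 held a library farther from the rest than Dixon's 95% limit, where chance alone flags about 1 in 20 groups. MCM2 was at 39.6 CPM in NS-Veh replicate 3, above 23.3 to 25.5 CPM in the other 3, and at 98.3 CPM in SLIRP-Veh replicate 3, below 113 to 115.5 CPM. MCM6 was at 88.1 CPM in NS-1nM DHT replicate 1, above 73.3 to 75.4 CPM. CCNE1 was at 16.1 CPM in NS-1nM DHT replicate 4, above 10.5 to 10.8 CPM. CCNE2 was at 55.4 CPM in SLIRP-1nM DHT replicate 3, below 77.6 to 80.9 CPM. WDHD1 was at 80.5 CPM in SLIRP-Veh replicate 1, above 53.5 to 58.0 CPM. LIG1 was at 29.6 CPM in SLIRP-Veh replicate 1, above 15.7 to 17.5 CPM. RPA1 was at 180.1 CPM in SLIRP-1nM DHT replicate 1, above 155 to 158 CPM. TIMELESS was at 34.0 CPM in NS-Veh replicate 1, one of the 2 shallowest libraries, below 67.3 to 73.3 CPM. Of these 8 genes, RPA1 had no siRNA call, and LIG1 alone lost its call when a replicate number was left out. That number was replicate 3, not the flagged replicate 1.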

How the results depend on the processing

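The count of replication genes higher with SLIRP siRNA over all libraries (41) was between 34 and 45 under every alternative but one, and 0 of the 52 were called lower in any comparison under any alternative run. Apart from that one, 1099 to 2359 of all genes tested were called higher and 956 to 2385 lower over all libraries. Requiring at least 10 counts in every library, which left 16 of the 52 genes to test, gave 13 called higher over all libraries, 12 in vehicle, 13 in DHT and 5 for DHT in NS cells. Of all 6931 genes left for the siRNA, 1408, 978 and 1070 were higher, and of 7329 for DHT in NS cells, 78. With only replicates 1 and 2 the counts were 35 over all libraries, 29 in vehicle and 35 in DHT, and with only replicates 3 and 4 they were 34, 30 and 28. Among all genes the first set of replicates gave 1099 of 9410, and 720 and 1005 of 10076. The second gave 1161 of 10353, and 784 and 858 of 10821. Limma on the normalized table gave 24 (pseudocount 1) and 23 (pseudocount 0.1) for the siRNA in DHT, with 792 and 757 of all 13148 genes higher. The DHT response of NS cells (9 genes) was less stable, with 3 by DESeq2, 1 and 0 by limma at pseudocounts 1 and 0.1, and 15 at a threshold of 0.05. Calls among all genes moved the same way, from 88 of 10360 to 55 by DESeq2 and 167 at a threshold of 0.05. Limma called 19 and 12 of 13148. In SLIRP siRNA cells (2 genes) it was 6 without a low-count filter, 8 at a threshold of 0.05 and 0 by limma at either pseudocount. There too the calls of higher genes among all genes moved the same way. They went from 68 of 10677 to 157 at a threshold of 0.05, and they also rose without the filter. By limma they were 21 and 17 of 13148 at pseudocounts 1 and 0.1. The causes of these shifts were not tested.

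Leaving out each replicate number in turn gave 39 to 42 genes for the siRNA over all libraries, 34 to 38 in vehicle, 35 to 37 in DHT, 3 to 5 for DHT in NS cells and 0 to 2 for DHT in SLIRP siRNA cells. Among all genes, 1460 to 1568 were then higher over all libraries, 814 to 1018 in vehicle and 1012 to 1177 in DHT. For DHT the range was 49 to 60 in NS cells and 27 to 45 in SLIRP siRNA cells. Each of these fits tested 9665 to 10758 genes. Nothing in the labels ties a replicate number to an experiment, so the fit with the number as a block is given here alone. In 16 of 32 comparisons of a library with another group, the highest correlation was at its own number. That is more than chance alone gives with 4 candidates each, so same-numbered libraries may not be fully independent. With the replicate block the counts were 41, 40 and 41 for the siRNA, 15 for DHT in NS cells and 3 in SLIRP siRNA cells. Among all genes the block gave 1797 of 10160, and 1307 and 1440 of 10677, for the siRNA. For DHT it gave 173 of 10360 in NS cells and 97 of 10677 in SLIRP siRNA cells, against 88 and 68 in the main fits. Of 630 values of single genes under alternatives, 594 kept their side of the threshold and their direction, 22 lost and 14 gained a call, and 0 reversed. E2F-type words on the given strand alone were found for 45.5% of the replication genes with a promoter in place of 77.3%, and for 14.7% in place of 26.2% of the tested genes.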
